A study of Mus musculus with 6 samples.

Results

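The 45 genes described here encode the actin contractile apparatus, the actin isoforms, non-muscle and smooth muscle myosin, tropomyosins, actin-binding regulators and crosslinkers, and the GTPase, ROCK, MRTF and SRF genes that control them. They were taken by gene symbol from a list of names. All 45 were among the 28043 gene names measured, and 43 passed the filter on low read numbers, which left 15766 genes to test. Acta1, the skeletal muscle actin gene, and Cnn1, the smooth muscle calponin gene, were below that filter. RNA was sequenced from primary retinal pigment epithelium (RPE) cells, from PVR mice and from normal mice. PVR, proliferative vitreoretinopathy, is a scarring disease in which contractile membranes form on the retina, and the series title calls it traumatic. There were 3 PVR and 3 Normal libraries. The labels give the treatment as PVR or normal and add no strain, sex, age, genotype or way of inducing PVR, and they do not say whether the replicates came from separate animals or pools, so the spread that p-values rest on is that between libraries and may be technical. Values are normalised read counts from 15269983 to 19173187 assigned reads per library, given for replicates 1, 2 and 3 in that order, and means carry the SD of 3 libraries. Log2 changes are the mean of log2(normalised count + 1) in PVR less that in Normal, a scale on which changes of genes with few reads come out too small. A gene was called where the limma adjusted p was under 0.05.

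Contraction in non-muscle cells rests on bipolar filaments of myosin II that pull on actin filaments stabilised by tropomyosin and crosslinked by alpha-actinin, filamin and fascin. The GTPase RhoA activates the kinases ROCK1 and ROCK2, which raise the phosphorylation of the myosin regulatory light chain. Polymerisation of actin also frees the coactivators MRTF-A and MRTF-B from actin monomers, and these act with the transcription factor SRF on many cytoskeletal genes. Smooth muscle alpha-actin in stress fibres is the customary sign of a myofibroblast, and RPE cells that leave their epithelium are among the cells found in the contractile membranes of PVR.

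The contractile genes rose more often than they fell. Of the 43 tested, 25 changed (30.8% of all genes tested did), of which 22 were higher in PVR (51.2%, where 17.9% of all genes tested were higher) and 3 were lower (6.98%, where 12.9% of all genes tested were lower). The median log2 change was 0.48 over the 43 genes and -0.02 over all 15766. The 22 that rose were all 4 tropomyosin genes, 6 of 7 crosslinkers and scaffolds, 3 of 4 tested actin genes, Tagln2, Myl9, Myh9, Myh10, Pfn1, Rhoa, Rock2, Mrtfa and Mrtfb. The 3 that fell were the myosin heavy chain gene Myh14, the calponin gene Cnn2 and the leiomodin gene Lmod1. The PVR libraries lay wholly above the Normal libraries for 27 of the 43 genes and wholly below for 3, against 24.7% and 23.3% of all genes tested. The 45 genes together held 0.777%, 0.848% and 0.706% of the normalised counts of the PVR libraries, against 0.606%, 0.607% and 0.620% of the Normal libraries. When a change of more than 1.5-fold was required, the test called 10 of the 43 genes higher (7.81% of all genes tested were) and 0 lower (1.58% were). The calls so kept were 10 of 22 higher and 0 of 3 lower, against 1232 of 2825 and 249 of 2033 over all genes. The 10 were Acta2, Actg2, Tagln2, Myh9, Myh10, Tpm1, Tpm2, Tpm4, Pdlim7 and Rock2. Leaving out each library in turn kept the calls of 16 of the 22 higher genes and 1 of the 3 lower ones, and without Normal replicate 3 the number called lower was 1.

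**Figure D1:**
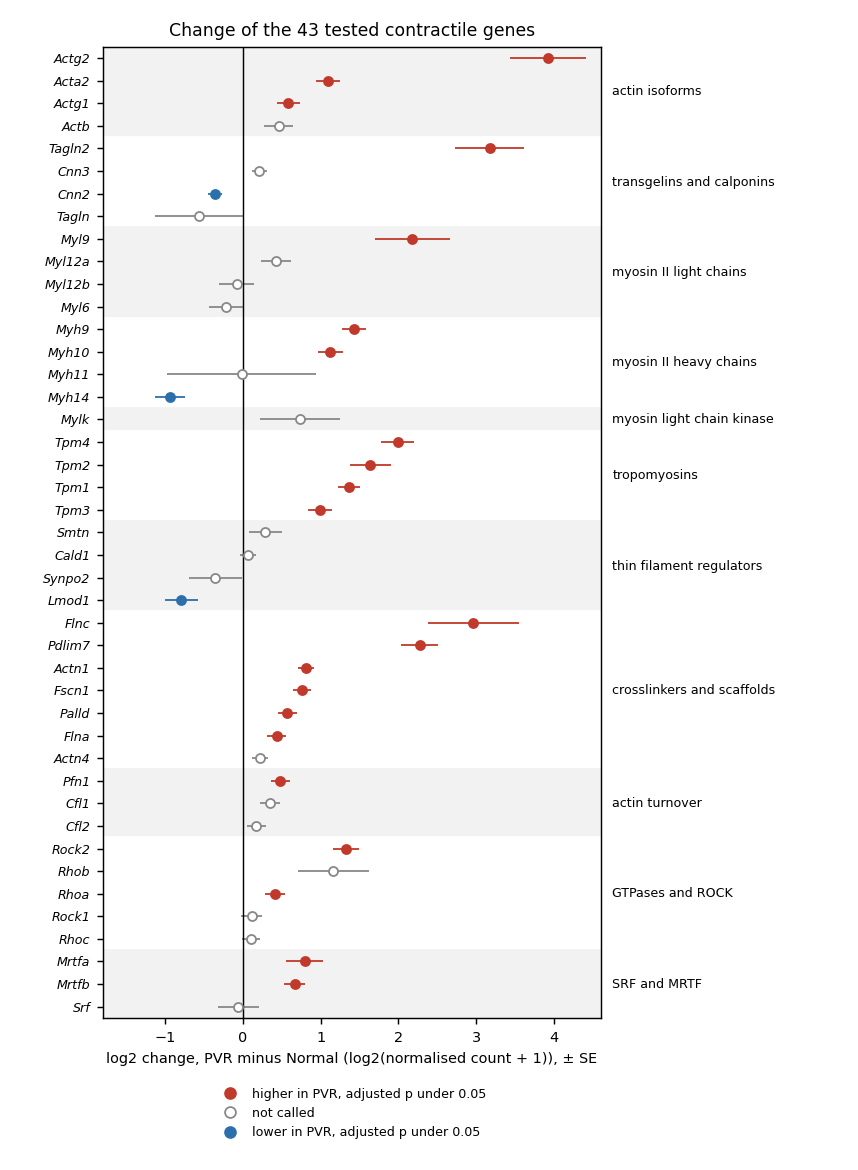
Log2 change (PVR minus Normal, with its SE) of the 43 tested contractile genes, grouped by role, where filled points passed an adjusted p of 0.05 and open points did not. All 4 tropomyosins and 6 of 7 crosslinkers lie to the right of 0 as filled points, whereas no thin filament regulator does and Lmod1 lies at -0.79.

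Other cell types were represented in the same libraries. The counts of markers called here and below stand beside 17.9% higher and 12.9% lower over all genes tested. Of 20 macrophage markers 19 rose and 1 fell, with a median log2 change of 4.698, and their summed level was 76732, 100504 and 41262 in the PVR libraries and 11826, 10947 and 12309.6 in the Normal libraries, with no marker at 0 in any library. The 3 with the smallest p were Trem2 (1365 ± 598 in PVR and 31.6 ± 7.14 in Normal), Itgam (248 ± 98.3 in PVR and 3.87 ± 2.58 in Normal) and Fcer1g (877 ± 422 in PVR and 31.7 ± 7.39 in Normal), and the marker that fell was Csf1r (7392 ± 947 in PVR and 10038 ± 998 in Normal), picked out after its values were seen. Csf1r made up most of the macrophage sum in Normal, so the sums understate the rise of the other markers. Of 14 actin regulators typical of leukocytes 13 rose, among them Coro1a, which encodes coronin (282 ± 92.2 in PVR and 17.8 ± 0.682 in Normal), the Rac activator gene Dock2 (459 ± 213 in PVR and 23.7 ± 5.52 in Normal) and Vav1 (241 ± 97.9 in PVR and 9.53 ± 1.86 in Normal), and that list summed to 6283, 7811 and 3337 in the PVR libraries and 884, 544 and 409 in the Normal libraries. Fibroblast markers rose for 9 of 13 tested and fell for 1, with sums of 29234, 32393 and 23193 in the PVR libraries and 13496, 15433 and 10836 in the Normal libraries. The 3 with the smallest p were Col1a1 (6769 ± 1815 in PVR and 699.8 ± 112 in Normal), Col1a2 (6372 ± 1478 in PVR and 903 ± 213 in Normal) and Pdgfra (442 ± 36.7 in PVR and 128 ± 36.03 in Normal). Other fibroblast markers made up most of that sum in Normal, so the sums understate the rise of these 3. The fibroblast marker that fell was Fap, picked out after its call was seen. RPE markers fell for 10 of 16 and 0 rose by limma (10 had an unadjusted p under 0.05, and edgeR and DESeq2 each called 10). Rpe65 (31775 ± 5689 in PVR and 86793 ± 3425 in Normal), Rrh (3734 ± 603 in PVR and 7766 ± 470.02 in Normal) and Rgr (157350.0 ± 9022 in PVR and 298663 ± 4536 in Normal) had the smallest p, and the RPE sums of 661348, 638733 and 709716 in the PVR libraries and 924711, 903470.0 and 990022 in the Normal libraries were the largest of any marker list. Macrophages and fibroblasts also express many of the contractile genes, and the part of these cells in the results below was not tested. PVR replicate 3 had the lowest macrophage sum of the PVR libraries and the lowest PVR value for 20 of the 22 contractile genes that rose. Over all genes tested it was also the PVR library nearest to Normal. Its correlation with the Normal libraries was 0.929 to 0.935, against 0.88 to 0.893 for PVR replicates 1 and 2. The share of all higher genes with their lowest PVR value in that library was not counted. In such bulk libraries fewer cells of a type and less RNA per cell cannot be told apart.

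**Figure D2:**
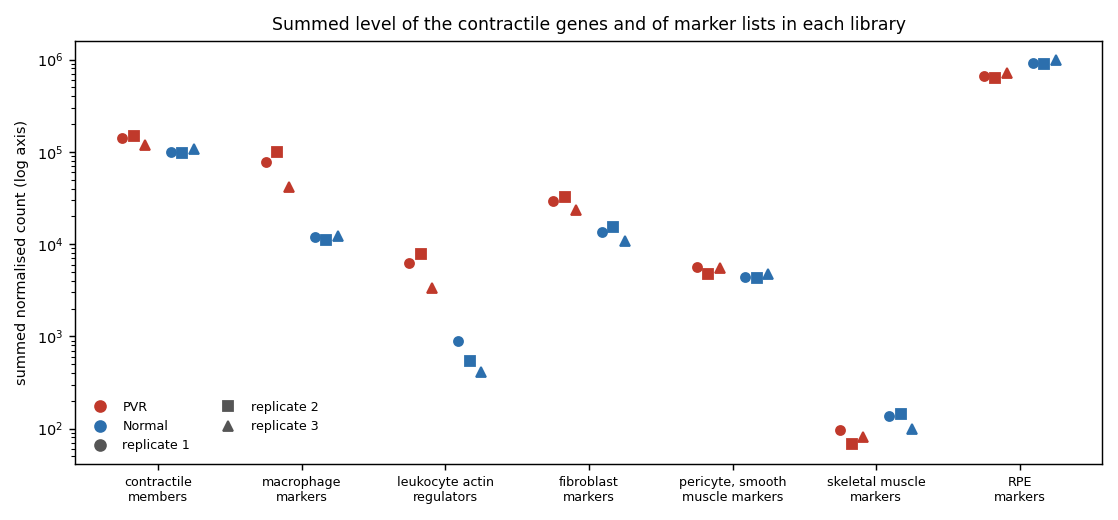
Summed normalised count (log axis) of the 45 contractile genes and of 6 lists of marker genes in each library, PVR in red and Normal in blue, with a symbol for each replicate number. The contractile sum is 118482 to 147483 in PVR and 95979.8 to 107751 in Normal, and the macrophage sum shows a wider gap. Csf1r, the macrophage marker that fell, makes up most of that sum in Normal.

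Rock2, 1 of the pair of ROCK kinase genes, rose, and its paralog Rock1 did not pass the test. Rock2 had 2765, 2898 and 1806 normalised counts in the PVR libraries, against 977, 989 and 953 in the Normal libraries (log2 change 1.32, SE 0.17, adjusted p = 0.00059). The groups did not overlap, and the call was kept without each library in turn. Rock1 had 1074, 1277 and 880.2 normalised counts in the PVR libraries, against 1008, 989 and 953 in the Normal libraries (log2 change 0.12, SE 0.14, adjusted p = 0.561), and the groups overlapped. Per kilobase of exon, Rock2 held 77.02%, 74.7% and 72.8% of the ROCK level in the PVR libraries, against 55.8%, 56.6% and 56.6% in the Normal libraries (exact two-sided permutation test over libraries, p = 0.1, the smallest that 3 against 3 allows). Of 32 such shares compared in 11 families, 21 reached that p, and their Benjamini-Hochberg adjusted value was 0.152, so no share passes a threshold of 0.05 in this design. The total ROCK level per kilobase was 239 ± 53.04 in PVR and 124 ± 2.70 in Normal, and over the 11 family totals an exact permutation p of 0.1 had an adjusted value of 0.110.

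Of the 3 small GTPase genes, Rhoa rose by a small amount and Rhob and Rhoc were not called. Rhoa, the main upstream activator of ROCK, had 3486, 3901 and 3121 normalised counts in the PVR libraries, against 2269.5, 2759.8 and 2885 in the Normal libraries (log2 change 0.41, SE 0.13, adjusted p = 0.0351), with no overlap between groups. That call was lost without Normal replicate 1 (adjusted p = 0.125) or 2 (0.0562) and without PVR replicate 1 (0.0788) or 2 (0.118), and under scaling to library totals (0.06). Rhob, an immediate early gene among these GTPases, had 5704, 5715 and 4301 normalised counts in the PVR libraries, against 3288, 1156 and 3275 in the Normal libraries (log2 change 1.16, SE 0.45, adjusted p = 0.113). Normal replicate 2 stood far below the other Normal libraries, and without it Rhob was called (adjusted p = 0.0102). Rhoc averaged 2664 ± 355 in PVR and 2467 ± 10.8 in Normal (adjusted p = 0.53).

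Both MRTF genes rose while Srf itself was not called. Mrtfb had 436, 521 and 401 normalised counts in the PVR libraries, against 278, 300.1 and 272 in the Normal libraries (log2 change 0.67, SE 0.14, adjusted p = 0.00506), and the groups did not overlap. Mrtfa had 508, 510.3 and 338 normalised counts in the PVR libraries, against 266, 187 and 335 in the Normal libraries (log2 change 0.80, SE 0.24, adjusted p = 0.0363). The groups did not overlap, but PVR replicate 3 and Normal replicate 3 were nearly level, and the call was lost without Normal replicate 1 (adjusted p = 0.0912) or 2 (0.0722), without PVR replicate 1 (0.117) or 2 (0.124), and with the replicate number as a block (0.0706). Srf had 772, 771 and 712 normalised counts in the PVR libraries, against 1048, 495 and 923 in the Normal libraries (adjusted p = 0.893), and Normal replicate 2 was again the lowest of all 6. The same library was the lowest for the immediate early genes Fos and Egr1, which SRF also controls and which were picked out here after their values were seen. Fos had 22892, 20477 and 23623 normalised counts in the PVR libraries, against 45877, 11619 and 37350.1 in the Normal libraries, and Egr1 had 32439.9, 21309 and 27884 normalised counts in the PVR libraries, against 49343, 19222 and 53265 in the Normal libraries. Neither was called (adjusted p = 0.735 and 0.474).

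SRF binds the CArG box, a DNA element of 10 bases with an AT-rich core of 6. Promoter windows of 250 bases before to 50 after the gene start (RefSeq, GRCm38.p6) were at hand for 40 of the 45 genes, and 6 of those 40 (15%) held a full CArG box, where 1.81% of all 27025 genes with a window did. That share is a description, and the element reads the same on both strands. Of those 6 genes Myl9 and Actg1 rose, Cnn2 fell, Srf and Myl6 were not called and Acta1 was too low to test. Only CC, 6 bases of A or T and GG counted as a full box, so near matches were left out. The Acta2 window, without a full box, holds CCCTATATGG and CCTTGTTTGG, each with a C or G in the core. A window without a full box thus says nothing about SRF binding there or elsewhere. The windows of the 3 called genes and of Srf are shown, since a box of the same type stood in genes that moved in opposite directions, with the box in capitals and each sequence 5′ to 3′ on its gene's strand. They lie at chr2:156775214-156775513, plus strand (box 161 bases before the start), chr11:120348446-120348745, minus strand (90 before), chr10:79988350-79988649, plus strand (56 before) and chr17:46556113-46556412, minus strand (82 and 62 before).
Myl9: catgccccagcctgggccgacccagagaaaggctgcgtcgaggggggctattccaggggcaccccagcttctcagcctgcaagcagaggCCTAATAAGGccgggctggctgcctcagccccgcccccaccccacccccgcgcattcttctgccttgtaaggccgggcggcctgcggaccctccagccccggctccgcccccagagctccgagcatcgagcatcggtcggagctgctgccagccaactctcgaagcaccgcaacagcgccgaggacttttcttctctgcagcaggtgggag
Actg1: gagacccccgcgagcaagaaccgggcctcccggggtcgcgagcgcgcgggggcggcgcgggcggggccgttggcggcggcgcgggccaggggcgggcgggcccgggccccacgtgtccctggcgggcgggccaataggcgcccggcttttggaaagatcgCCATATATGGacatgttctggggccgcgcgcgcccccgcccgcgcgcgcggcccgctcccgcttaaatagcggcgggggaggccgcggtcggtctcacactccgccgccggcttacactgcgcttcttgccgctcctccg
Cnn2: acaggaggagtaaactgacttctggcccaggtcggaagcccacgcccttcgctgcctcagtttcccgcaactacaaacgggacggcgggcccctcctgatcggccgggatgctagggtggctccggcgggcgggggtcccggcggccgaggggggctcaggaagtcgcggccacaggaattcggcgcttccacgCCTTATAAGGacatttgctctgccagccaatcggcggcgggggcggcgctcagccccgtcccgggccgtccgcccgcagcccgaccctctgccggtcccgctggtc
Srf: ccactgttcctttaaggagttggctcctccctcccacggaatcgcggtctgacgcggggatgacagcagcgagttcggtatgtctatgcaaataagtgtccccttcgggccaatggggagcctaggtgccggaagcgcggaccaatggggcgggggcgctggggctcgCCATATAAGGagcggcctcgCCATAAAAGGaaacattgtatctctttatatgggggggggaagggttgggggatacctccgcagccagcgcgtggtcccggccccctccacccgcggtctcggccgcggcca

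Among the actins, the smooth muscle genes Acta2 and Actg2 rose most, Actg2 at a low level, and the cytoplasmic actin genes moved less. Acta2, the myofibroblast actin gene (chromosome 19, 34241090 to 34255590 on GRCm38), had 5048, 5782 and 4131 normalised counts in the PVR libraries, against 1941, 2373 and 2696 in the Normal libraries (log2 change 1.09, SE 0.16, adjusted p = 0.000846). The lowest PVR library stood above the highest Normal library, and the call was kept without each library in turn. Actg2, the smooth muscle gamma-actin gene, had 45.3, 67.2 and 26.4 normalised counts in the PVR libraries, against 2.06, 1.85 and 1.81 in the Normal libraries (log2 change 3.93, SE 0.49, adjusted p = 0.000415). The reads behind them numbered 44, 59 and 28 in PVR and 2, 2 and 2 in Normal, a ratio of 23.7, with an exact 95% interval of 10.6 to 65.7, which covers counting error only. Acta1 had 8, 10 and 3 reads in PVR and 2, 4 and 1 in Normal, too few to test. Skeletal muscle markers were also scarce, with sums of 95.8, 67.2 and 80.3 in the PVR libraries and 136, 144 and 97.9 in the Normal libraries, with 3, 4 and 2 of 11 at 0 in PVR and 5, 5 and 6 in Normal. Casq1 was the 1 of 3 tested that was called, at 33.6 ± 8.48 in PVR and 79.3 ± 18.6 in Normal. That call was lost without Normal replicate 1 (adjusted p = 0.0651).

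Actg1, a cytoplasmic actin gene with a CArG box in its promoter, had 16628, 20615 and 14919.7 normalised counts in the PVR libraries, against 10549, 10779 and 13439.7 in the Normal libraries (log2 change 0.58, SE 0.15, adjusted p = 0.0152). All PVR values were above all Normal values, but the call was lost without Normal replicate 1 (adjusted p = 0.0613) or PVR replicate 2 (0.0523). Actb, the other cytoplasmic actin gene, had 15219, 21456 and 13041 normalised counts in the PVR libraries, against 11852, 10402 and 13275 in the Normal libraries (log2 change 0.46, SE 0.18, adjusted p = 0.0882). Its PVR replicate 3 lay below Normal replicate 3, and without PVR replicate 3 Actb was called (adjusted p = 0.0254). DESeq2 on the recovered reads of all libraries also called Actb higher (adjusted p = 0.033). Levels per kilobase allow the isoforms to be compared. Actg1 (6542 in PVR and 4360.1 in Normal) and Actb (6186 in PVR and 4421 in Normal) stood far above Acta2 (2271 in PVR and 1064 in Normal), and Actg2 (29.7 in PVR and 1.23 in Normal) stood far below it. Acta2 held 16.1%, 14.3% and 15.2% of the actin level in the PVR libraries, against 9.52%, 11.98% and 10.9% in the Normal libraries (exact permutation test, two-sided, p = 0.1). The actin total per kilobase was 15033 ± 3105 in PVR and 9847 ± 1214 in Normal (exact permutation test, p = 0.1). Actin genes have near-identical coding sequences and many processed pseudogenes, and any reads that copies share make their levels uncertain.

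Tagln, Myh11 and Mylk, all genes of the smooth muscle programme, were not called, and Cnn1 was too low for the main test. Tagln, which encodes the smooth muscle protein transgelin, had 9.27, 19.4 and 3.78 normalised counts in the PVR libraries, against 12.4, 12.97 and 16.3 in the Normal libraries (log2 change -0.56, SE 0.57, adjusted p = 0.492), and the groups overlapped. Opposite-strand exons of Gm48529 and Pcsk7 cover most of the Tagln exon bases (67.9%), and as the use of strand in counting is not given in the sources used here, reads of these genes cannot be told apart. Cnn1, smooth muscle calponin, had 18, 17 and 10 reads in PVR, against 1, 1 and 2 reads in Normal, all of its PVR values above all Normal ones. The ratio was 12.2, with an exact 95% interval of 4.45 to 46.7, again for counting error only. Its mean was 15.8 normalised counts in PVR and 1.26 in Normal, where 3 reads correspond to 2.72 to 3.42. Myh11, smooth muscle myosin heavy chain, had 16.5, 26.2 and 76.5 normalised counts in the PVR libraries, against 9.28, 107 and 33.5 in the Normal libraries. The groups overlapped throughout (adjusted p = 0.991), with Normal replicate 2 the highest of all libraries. Mylk, the kinase of the myosin regulatory light chain, had 153, 212 and 191 normalised counts in the PVR libraries, against 98.9, 244 and 55.3 in the Normal libraries (log2 change 0.73, SE 0.51, adjusted p = 0.328). Normal replicate 2 was once more above every other library, and without it Mylk was called higher (adjusted p = 0.00774).

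Lmod1, a smooth muscle nucleator of actin filaments, fell: it had 479, 254 and 416 normalised counts in the PVR libraries, against 647, 662 and 616 in the Normal libraries (log2 change -0.79, SE 0.21, adjusted p = 0.0229). The groups did not overlap, but the call was lost without Normal replicate 1 (adjusted p = 0.0739), 2 (0.0527) or 3 (0.0593). The remaining thin filament regulators were not called. Caldesmon, Cald1, averaged 7041 ± 537 in PVR and 6742 ± 199 in Normal (adjusted p = 0.696), smoothelin, Smtn, 330.4 ± 51.8 in PVR and 274 ± 69.6 in Normal (0.322) and synaptopodin-2, Synpo2, 33.4 ± 10.2 in PVR and 41.9 ± 7.21 in Normal (0.467). Of 11 tested pericyte and smooth muscle markers outside the contractile genes, 4 rose and 0 fell by limma (7 had an unadjusted p under 0.05, and edgeR and DESeq2 each called 4), with a median log2 change of 0.32. Mcam rose to 365 ± 55.1 in PVR, against 44.7 ± 18.3 in Normal, and Rgs5 averaged 1195 ± 156 in PVR and 622 ± 154 in Normal. Itga7 averaged 1166 ± 62.1 in PVR and 857 ± 115 in Normal, a call that depended on the libraries kept (adjusted p up to 0.0711). Myocd, the smooth muscle coactivator of SRF, which was picked out after its values were seen, had 3, 1 and 2 reads in PVR and 0, 1 and 0 in Normal.

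**Figure D3:**
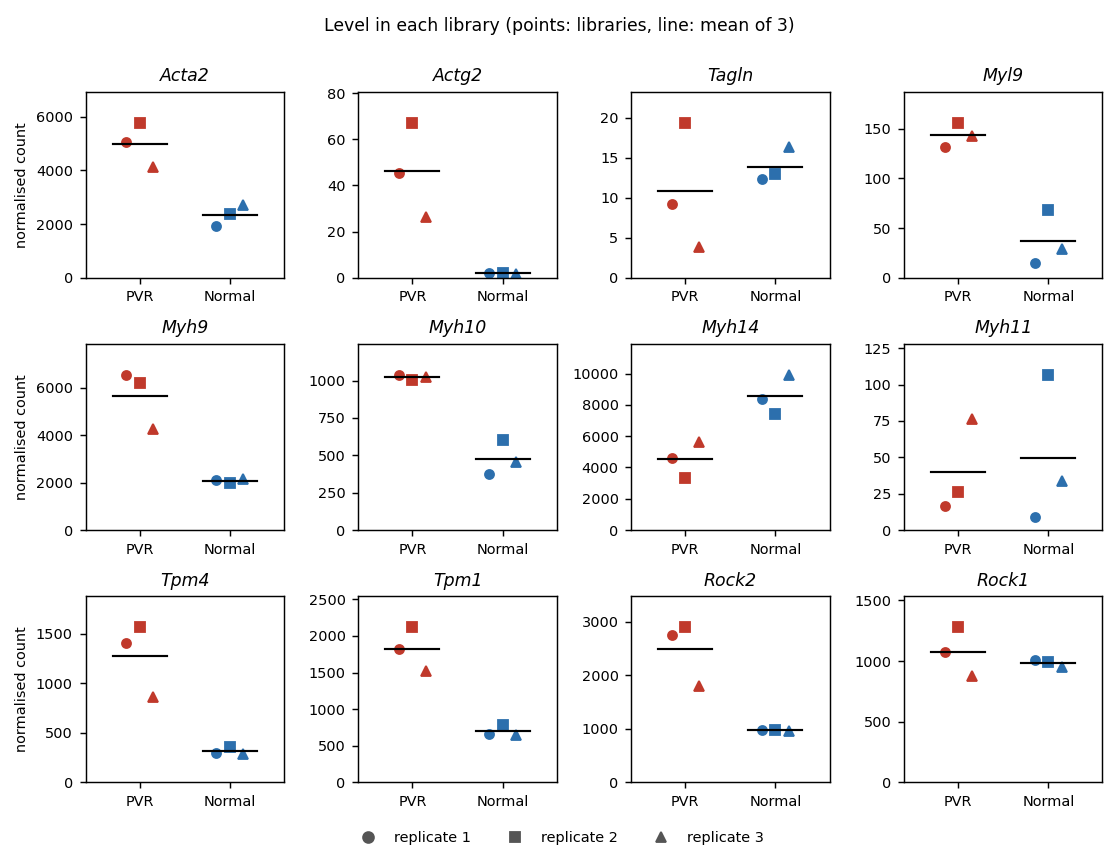
Normalised count of 12 contractile genes in each library, with PVR left of Normal in each panel, a symbol for each replicate number and a line at the mean of 3 libraries. The groups separate for Acta2, Actg2, Myl9, Myh9, Myh10, Myh14, Tpm4, Tpm1 and Rock2 and overlap for Tagln, Myh11 and Rock1.

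The myosin heavy chains moved in opposite directions. Myh9, the heavy chain of non-muscle myosin IIA, had 6541, 6215 and 4274 normalised counts in the PVR libraries, against 2109.8, 1976 and 2148 in the Normal libraries (log2 change 1.43, SE 0.16, adjusted p = 0.000242). Myh10, the heavy chain of myosin IIB, had 1037, 1005 and 1027 normalised counts in the PVR libraries, against 374, 603 and 456 in the Normal libraries (log2 change 1.12, SE 0.16, adjusted p = 0.000781). The Myh10 values of PVR were almost equal to each other and all lay above the Normal values. Myh14, the heavy chain of myosin IIC, which is typical of epithelia, had 4613, 3339 and 5605 normalised counts in the PVR libraries, against 8351, 7392 and 9908 in the Normal libraries (log2 change -0.94, SE 0.19, adjusted p = 0.00666). The highest PVR library was below the lowest Normal library, and all 3 calls were kept without each library in turn.

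Per kilobase of exon union, Myh14 averaged 621 in PVR and 1176 in Normal and Myh9 439 in PVR and 161 in Normal. Per kilobase of the longest coding transcript, Myh14 averaged 695 in PVR and 1316 in Normal and Myh9 764 in PVR and 279.6 in Normal, so which of them led in PVR depended on the length used, while Myh14 led in Normal by both. Per kilobase of exon union, Myh14 held 51.1%, 44.2% and 63.7% of the heavy chain level in the PVR libraries, against 85.2%, 81.9% and 86.4% in the Normal libraries. Myh9 held 40.8%, 46.3% and 27.3% in PVR, against 12.1%, 12.3% and 10.5% in Normal, and Myh10 held 7.99%, 9.24% and 8.12% in PVR, against 2.65%, 4.65% and 2.77% in Normal. For each of these 3 shares the groups did not overlap (exact two-sided permutation test, p = 0.1). The heavy chain total per kilobase was 1163 ± 109 in PVR and 1389 ± 171 in Normal, and its groups overlapped (exact permutation test, p = 0.2). PVR replicate 3 had the lowest macrophage sum of the PVR libraries and lay nearest to Normal over all genes tested. That library also had the lowest Myh9 share in PVR, and the part of macrophages in it was not tested.

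Of the myosin light chain genes Myl9 rose, and the other 3 were not called. Myl9, the regulatory light chain of smooth muscle and stress fibres, had 132, 156 and 143 normalised counts in the PVR libraries, against 14.4, 68.5 and 29.002 in the Normal libraries (log2 change 2.18, SE 0.49, adjusted p = 0.0106). The Normal libraries spread widely, from 14.4 to 68.5, and still lay below all PVR libraries. The Myl9 call was lost in a limma fit of replicates 1 and 2 only (adjusted p = 0.114). The general regulatory light chain genes Myl12a (1169.5 ± 228 in PVR and 875 ± 185 in Normal, adjusted p = 0.125) and Myl12b (83.7 ± 13.3 in PVR and 88.2 ± 8.17 in Normal, 0.811) were not called, and they share part of their annotated exons on the same strand. Nor was the essential light chain gene Myl6 (4890.5 ± 1502 in PVR and 5544 ± 761 in Normal, adjusted p = 0.492). Per kilobase, Myl12a remained the leading regulatory light chain gene, with 75.8%, 67.2% and 65.8% of their level in PVR, against 86.96%, 69.7% and 85.8% in Normal. Myl9 took 20.3%, 27.7% and 27.4% in PVR, against 3.82%, 20.8% and 7.12% in Normal, where Normal replicate 2 overlapped the PVR range (exact permutation test, p = 0.2).

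All 4 tropomyosin genes rose, and none lost its call without any single library. Tropomyosins lie along actin filaments and set which myosins and regulators can bind. Tpm4 had 1405, 1563 and 866 normalised counts in the PVR libraries, against 297, 359 and 283 in the Normal libraries (log2 change 1.99, SE 0.22, adjusted p = 0.00041), and Tpm1 had 1818, 2115 and 1514 normalised counts in the PVR libraries, against 667, 781 and 651 in the Normal libraries (log2 change 1.37, SE 0.14, adjusted p = 0.000153). Tpm2, the isoform gene with the fewest reads, had 195, 206 and 154 normalised counts in the PVR libraries, against 41.2, 76.9 and 62.5 in the Normal libraries (log2 change 1.64, SE 0.26, adjusted p = 0.0014). Tpm3 had 2529, 2265 and 1636 normalised counts in the PVR libraries, against 1142, 1082 and 968 in the Normal libraries (log2 change 0.99, SE 0.16, adjusted p = 0.00152). No tropomyosin gene showed overlap between groups, and PVR replicate 3 was the lowest PVR library for each. The tropomyosin total per kilobase was 1276 ± 286 in PVR and 445 ± 39.6 in Normal (exact two-sided permutation test, p = 0.1). Within it Tpm4 held 45.5%, 47.97% and 41.5% in PVR, against 30.7%, 33.4% and 31.4% in Normal, and Tpm3 held 29.7%, 25.2% and 28.3% in PVR, against 42.7%, 36.5% and 38.9% in Normal. Which of Tpm3 and Tpm4 was the larger in PVR depended on the gene length used. Per kilobase of the longest coding transcript, Tpm4 had 660.02, 734 and 407 in the PVR libraries and Tpm3 had 1133, 1015 and 733, so that Tpm3 was above Tpm4 in each, whereas per kilobase of exon union Tpm4 was above Tpm3. Tpm1 (20.02%, 22.1% and 24.6% in PVR, against 23.4%, 24.7% and 24.5% in Normal) and Tpm2 (4.78%, 4.79% and 5.58% in PVR, against 3.23%, 5.42% and 5.25% in Normal) kept overlapping shares. Exon-union lengths ignore which transcripts of these genes are used, and the longest coding transcript in their place turned the sign of the Tpm1 share difference.

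**Figure D4:**
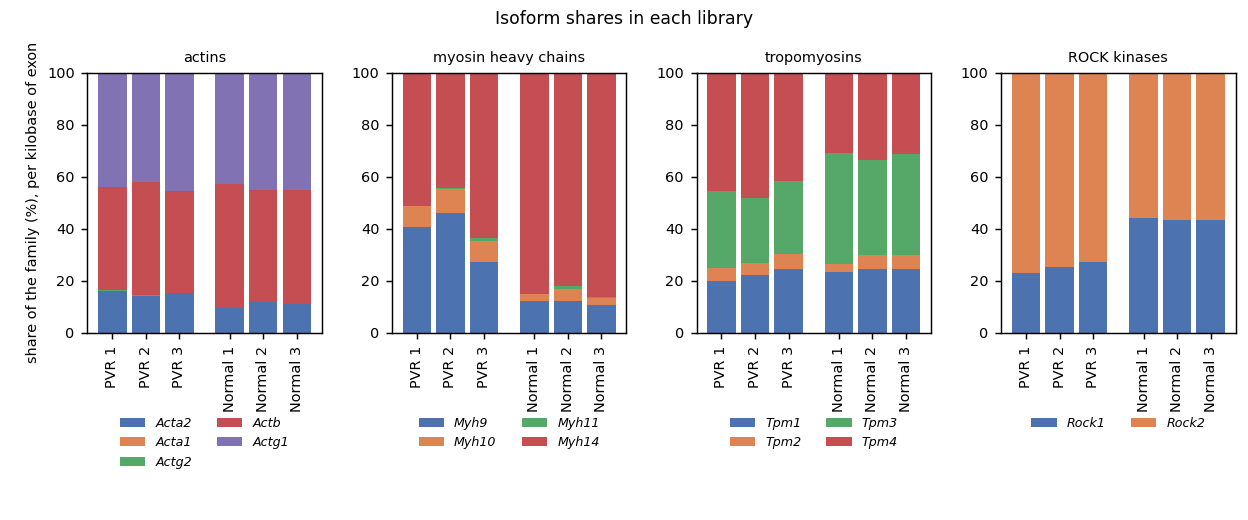
Share (%) of each isoform in the summed level per kilobase of exon of the actins, myosin heavy chains, tropomyosins and ROCK kinases, in each PVR library (left) and each Normal library (right). Myh14 makes up 44.2% to 63.7% of the heavy chain level in PVR and 81.9% to 86.4% in Normal, and Tpm4 and Rock2 take larger shares in every PVR library, while Acta1 and Actg2 are too small to be seen.

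The calponin and transgelin families split by isoform. Tagln2, the transgelin of non-muscle cells and leukocytes, had 975, 932 and 502 normalised counts in the PVR libraries, against 117, 112 and 45.3 in the Normal libraries (log2 change 3.18, SE 0.44, adjusted p = 0.00299). Every PVR library was above every Normal library, and Normal replicate 3 was the lowest. Cnn2, a calponin gene also active outside muscle, fell slightly: it had 1090.5, 1147 and 1106 normalised counts in the PVR libraries, against 1397, 1391 and 1500.0 in the Normal libraries (log2 change -0.36, SE 0.09, adjusted p = 0.0168). The groups did not overlap, and the call was lost without Normal replicate 3 (adjusted p = 0.0615). Cnn3, the acidic calponin and the most abundant of the family, had 12674, 13739 and 12388 normalised counts in the PVR libraries, against 10814, 11224 and 11433 in the Normal libraries (adjusted p = 0.14). Cnn3 held 90.3%, 90.5% and 90.004% of the calponin level per kilobase in PVR, against 86.2%, 86.7% and 86.05% in Normal (exact permutation test, p = 0.1).

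Crosslinkers and scaffolds rose for 6 of 7 genes, with the largest changes in Flnc and Pdlim7. Flnc, the muscle filamin gene, had 1663, 657 and 492 normalised counts in the PVR libraries, against 77.3, 77.8 and 184 in the Normal libraries (log2 change 2.96, SE 0.58, adjusted p = 0.0153). The groups did not overlap, but PVR replicate 1 stood far above the other PVR libraries, and the call was lost without Normal replicate 2 (adjusted p = 0.056) or PVR replicate 2 (0.0539) and with the replicate number as a block (0.0747). Pdlim7, which encodes the alpha-actinin and tropomyosin binding protein enigma, had 1244, 830.3 and 632 normalised counts in the PVR libraries, against 183, 205 and 152 in the Normal libraries (log2 change 2.27, SE 0.24, adjusted p = 0.000337). Its lowest PVR value was above its highest Normal value. Actn1, a non-muscle alpha-actinin gene, had 3311, 3703 and 3111 normalised counts in the PVR libraries, against 1862, 1947 and 1952 in the Normal libraries (log2 change 0.81, SE 0.10, adjusted p = 0.000436), and Fscn1, the gene of the filopodial bundling protein fascin, had 2634, 3032 and 2509 normalised counts in the PVR libraries, against 1435, 1742 and 1638 in the Normal libraries (log2 change 0.76, SE 0.12, adjusted p = 0.00108).

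Palld, the palladin scaffold of stress fibres, had 3571, 3476 and 2734 normalised counts in the PVR libraries, against 2079.9, 2147 and 2311 in the Normal libraries (log2 change 0.57, SE 0.12, adjusted p = 0.0064). For Palld, Actn1 and Fscn1 all PVR values were above all Normal values, and their calls and that of Pdlim7 were kept without each library in turn. Flna, the general filamin gene, had 6214, 7768 and 5988 normalised counts in the PVR libraries, against 4837, 4829.6 and 5025 in the Normal libraries (log2 change 0.43, SE 0.12, adjusted p = 0.021), a call lost without Normal replicate 1 (adjusted p = 0.0624) or 2 (0.0619) or PVR replicate 2 (0.0641), although its groups did not overlap. Actn4, the other non-muscle alpha-actinin gene, averaged 7326 ± 604 in PVR and 6259.6 ± 212 in Normal and was not called (adjusted p = 0.133). Actn1 nevertheless stayed below Actn4 per kilobase and held 32.04%, 35.2% and 34.2% of the alpha-actinin level in PVR, against 25.4%, 25.6% and 25.03% in Normal. Flnc held 21.1%, 7.80% and 7.59% of the filamin level in PVR, against 1.57%, 1.58% and 3.53% in Normal, so Flna remained the major filamin (exact permutation test, p = 0.1 for both pairs).

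Genes of actin monomer turnover moved little. Pfn1, which encodes the monomer-binding protein profilin, had 3234, 3087 and 2449.9 normalised counts in the PVR libraries, against 2086, 2185 and 1983 in the Normal libraries (log2 change 0.48, SE 0.12, adjusted p = 0.015). The groups did not overlap, but the call was lost without Normal replicate 3 (adjusted p = 0.0537) and without PVR replicate 1 (0.0545) or 2 (0.0544). Cfl1, the non-muscle cofilin that severs filaments, averaged 4019.8 ± 593 in PVR and 3140.3 ± 164 in Normal (adjusted p = 0.0601). Limma called it without PVR replicate 3 (0.0137) and with the replicate number as a block (0.0305). It was also called with Normal replicate 2 and PVR replicate 3 both left out (0.033), and by DESeq2 on all recovered reads (0.0399). Cfl2, the muscle cofilin gene, averaged 1754 ± 18.5 in PVR and 1568 ± 249.97 in Normal (0.329). Actb, Actg1, Cfl1, Pfn1, Myl6 and Tpm3 have processed pseudogenes, so their levels carry the uncertainty given for the actins. Annotated exons of other genes cover more than 5% of the exon bases of Actn1, Actn4, Cfl1, Cnn3, Mylk, Smtn and Tpm4, as of Tagln, Myl12a and Myl12b, and their counts are uncertain to that degree.

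Genes next to this apparatus were examined from 3 further lists. Over all genes tested 17.9% were higher and 12.9% lower, the base for the counts of these 3 lists. Of 25 tested genes of the Arp2/3 complex and of other actin nucleators, which build branched and unbranched filaments, 17 rose and 2 fell, with a median log2 change of 0.50. The 3 with the smallest p were the formin gene Daam1 (5499 ± 226 in PVR and 1994 ± 161 in Normal) and the Arp2/3 subunit genes Arpc1b (3587 ± 936 in PVR and 596 ± 30.1 in Normal) and Arpc3 (1099 ± 156 in PVR and 615 ± 14.9 in Normal). The 2 that fell, picked out after their values were seen, were Wasf3 (339 ± 21.95 in PVR and 443 ± 10.3 in Normal), a call that leaving out single libraries could end (adjusted p up to 0.107), and Enah, a gene of the Ena/VASP family (752 ± 54.95 in PVR and 1128 ± 79.99 in Normal). Of 30 regulators of small GTPases and of myosin phosphatase, 10 rose and 1 fell, with a median log2 change of 0.28. Those that rose included the GTPase exchange factor gene Arhgef2 (1171 ± 88.2 in PVR and 733 ± 15.8 in Normal), the kinase gene Dapk1 (433 ± 84.3 in PVR and 171 ± 47.6 in Normal) and the cofilin phosphatase gene Ssh3 (1416 ± 146 in PVR and 769 ± 166 in Normal).

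Of 28 other genes known as SRF or MRTF targets, 14 rose and 3 fell, with a median log2 change of 0.52. Ccn2, which encodes connective tissue growth factor, averaged 3326 ± 257 in PVR and 1130.3 ± 74.6 in Normal (adjusted p = 2.55e-05), and Vcl, the vinculin gene of adhesion sites, averaged 1130.0 ± 173 in PVR and 534 ± 36.1 in Normal (0.000398). Csrp2, a LIM protein gene of smooth muscle, fell to 173 ± 12.1 in PVR, against 386 ± 42.3 in Normal (0.000436). Svil (937 ± 71.2 in PVR and 1285 ± 61.6 in Normal) and Jag1 (1031 ± 44.6 in PVR and 1399 ± 147 in Normal) also fell and were picked out after their values were seen, and the Jag1 call was lost without Normal replicate 3 (adjusted p = 0.0516). With Normal replicate 2 and PVR replicate 3 both left out, 24 of 44 contractile genes tested were called higher and 1 lower. Of all 15779 genes then tested, 17.1% were higher and 9.92% lower. PVR replicate 3 had the lowest PVR value for 20 of the 22 contractile genes that rose, so leaving it out favours calls of higher.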

How the data were processed

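Polyadenylated RNA of primary RPE cells was measured in 6 mouse libraries, 3 PVR and 3 Normal, grouped by their titles. What the authors deposited is a normalised signal for each gene name. It consists of read counts divided by 1 size factor per library, as seen from the numbers, 100% of which were whole multiples of 1 step within 0.001 reads. Per the submitters' processing notes, build mm10 and the tool DESeq2 had a part that is not described. Not given in the sources used here are the aligner, the read counter, whether it used strand and which annotation it used. Recovered reads numbered 17507440, 15269983 and 17775427 in PVR and 15929388, 17075519 and 19173187 in Normal. A count of 0 allows 3 reads, or 2.72 to 3.42 normalised counts, which covers counting error only.

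The values were compared in R 4.3.3 with limma 3.58.1 after the transform log2(normalised count + 1), using trend and robust moderation, over 15766 genes that passed filterByExpr of edgeR 4.0.16 (minimum count 10) on the recovered reads. P-values were adjusted over all of them by Benjamini-Hochberg, with a threshold of 0.05. The recovered reads were also tested with edgeR's quasi-likelihood test, which called 2762 genes higher and 1944 lower. DESeq2 1.42.0 on the same reads called 2889 genes higher and 1935 lower. Scripts were tested on simulated data. Levels per kilobase used the exon union of GENCODE M21 (GRCm38), and shares of a family were compared by exact permutation over libraries. Promoters are from RefSeq (GRCm38.p6). The labels do not say that equal replicate numbers mark a shared animal or day. The correlation of library deviations from group means was 0.206, 0.195 and 0.179 for equal numbers and -0.137 to -0.069 for unequal ones. Libraries of equal number may thus be paired, and blocked values stand where they change a call. The main test and the permutation treated all libraries as unpaired.

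The 45 genes and all other lists were chosen with earlier results of these data known. No measured value entered the rule for the 45, but their counts beside those of all genes are a description. 1 photoreceptor marker is not reported here and is in no sum. Library values are given for each contractile gene that was called and for Acta2, Tagln, Cnn1, Myl9, Myh11 and Mylk, and often for others. Of each other list up to 3 called genes with the smallest p are named, and genes named beyond that are said to be picked after their values were seen. Exon bases overlap another gene by more than 5% for 10 of the 45 genes. Alternatives were other tests, scalings, pseudocounts and filters, each library left out, the replicate block, replicates 1 and 2 only, 2 libraries left out together and a minimum change of 1.5-fold.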

Additional observations from a re-analysis of the deposited data

How the results depend on the processing

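The number of contractile genes called higher stayed within 1.5 times its value of 22 under every alternative but the minimum change of 1.5-fold, which called 10 higher and 0 lower (1232 and 249 over all genes, against 2825 and 2033). Leaving out each library in turn gave 16 to 25 contractile genes higher and 1 to 3 lower, and 1307 to 2026 lower over all genes, fewest without Normal replicate 1. Some of these fits tested 44 contractile genes, and the fit with no filter tested 45. Their counts can thus include genes below the main filter. Replicates 1 and 2 alone, and Normal replicate 2 and PVR replicate 3 both left out, each left 1 contractile gene lower. With the replicate block, which takes libraries of equal number as paired, 21 contractile genes were higher and 3 lower. It ended the calls of Flnc and Mrtfa, added Cfl1 and changed no other contractile call.

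Signs turned only for genes and shares that were not called. With single libraries left out, the log2 change ranged over -0.44 to 0.007 for Myl6, -0.20 to 0.019 for Myl12b, -0.87 to 0.82 for Myh11, -0.002 to 0.18 for Rhoc, -0.016 to 0.25 for Rock1 and -0.39 to 0.15 for Srf. It was 0.082 for Tagln and 0.10 for Srf in replicates 1 and 2 alone, 0.21 for Myh11 with 2 libraries left out and -0.014 for Cald1 under scaling to library totals, which moved the median of all genes to -0.09. With single libraries left out, share differences in percentage points ranged over -1.29 to 0.35 for Actg1, -0.26 to 0.26 for Myh11 and -0.28 to 0.81 for Tpm2, and the longest coding transcript gave 0.81 for Tpm1. The cause of these changes was not tested. Depth limits Acta1, Cnn1, Actg2 and Tagln most.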

Other observations

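Markers of 3 further cell types that an eye preparation could hold were counted. Of 10 endothelial markers 0 were called by limma (1 had an unadjusted p under 0.05, and edgeR and DESeq2 each called 0), and their sums were 1499, 975 and 923 in the PVR libraries and 1054, 1081 and 349 in the Normal libraries. Of 8 tested photoreceptor markers 0 rose and 1 fell by limma (3 had an unadjusted p under 0.05, and edgeR and DESeq2 each called 1). The marker that fell was Rom1, a gene of photoreceptor discs, at 2063 ± 503 in PVR and 4118 ± 490.1 in Normal (adjusted p = 0.00308). The photoreceptor sums were 2333, 2169.7 and 2983 in the PVR libraries and 3985, 4299.9 and 4921 in the Normal libraries, lower in every PVR library, and Rom1 made up most of each sum, while the median log2 change of the list was 0.88. Of 6 tested Müller glia and astrocyte markers 3 rose. The mu-crystallin gene Crym averaged 69.4 ± 27.3 in PVR and 11.8 ± 8.84 in Normal (adjusted p = 0.00529) and kept its call without each library in turn. Dkk3 (7595 ± 898 in PVR and 1771 ± 1598 in Normal) and Car2 (37.6 ± 10.7 in PVR and 15.2 ± 6.32 in Normal) had an adjusted p of 0.0382 each, which leaving out single libraries raised to as much as 0.157 and 0.132. That list summed to 41919, 37718 and 40772 in the PVR libraries and 32427, 41421 and 34875 in the Normal libraries.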
